A study of Mus musculus with 2 samples.

Results

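Ivl, which encodes involucrin, and Upk1a, which encodes uroplakin 1a, are 2 of the 479 genes measured in sections of EKP and RKP tumours. They were taken by name, and both had been seen earlier in these data to be high in the Epcam-rich barcodes of the EKP section. The values that chose them were their levels and detection in 3 sets of barcodes: those with 5 or more Epcam counts, those with 0 to 1 Epcam counts and those with Krt5. The question was whether Ivl in the EKP epithelium came with a squamous programme or apart from Krt5. Contrasts of these sets are therefore descriptions.

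EKP and RKP are cultured cells that the labels do not spell out further. For each, cells were mixed with Matrigel and placed under the skin of both flanks of 5-week-old C57BL/6 mice, and the tissue was labelled as diffuse gastric cancer. Each group is 1 section, and both sections were cut from 1 block and placed on 1 slide, read in situ with the Xenium platform on a panel of 379 standard and 100 added genes. The host mice kept their own stroma and immune cells, so a section mixes grafted and host cells, and with 1 section a group there is no replicate and no test between groups. All intervals are 95% intervals for counting error only.

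Involucrin is a structural protein of the cornified envelope. In skin and in the forestomach of rodents it is made above the basal layer, where keratinocytes have left the Krt5-rich basal state, and cross-linking fixes it under the plasma membrane. Its gene lies in the epidermal differentiation complex beside other envelope genes such as those for loricrin and the late envelope proteins. Uroplakin 1a is a tetraspanin that pairs with uroplakin 2 in the plaques that cover umbrella cells of the bladder. Glandular epithelium of the stomach is instead marked by the simple keratins Krt8 and Krt19.

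The start regions of both genes are shown because the levels of both genes are followed side by side below. They are the 250 bases before the annotated start in RefSeq, build GRCm38.p6, read 5′ to 3′ on the minus strand. Ivl (ENSMUSG00000049128) lies on chromosome 3 and its window is chr3:92573736-92573985. Upk1a (ENSMUSG00000006313) lies on chromosome 7 and its window is chr7:30612735-30612984. Capitals mark the AP-1 motif TGACTCA and the TATA box TATAAA, each searched on both strands.
Ivl: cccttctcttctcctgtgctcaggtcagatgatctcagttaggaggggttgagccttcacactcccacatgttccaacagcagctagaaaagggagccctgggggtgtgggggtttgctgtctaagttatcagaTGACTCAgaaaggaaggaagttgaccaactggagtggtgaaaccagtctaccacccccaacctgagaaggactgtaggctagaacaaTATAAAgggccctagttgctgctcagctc
Upk1a: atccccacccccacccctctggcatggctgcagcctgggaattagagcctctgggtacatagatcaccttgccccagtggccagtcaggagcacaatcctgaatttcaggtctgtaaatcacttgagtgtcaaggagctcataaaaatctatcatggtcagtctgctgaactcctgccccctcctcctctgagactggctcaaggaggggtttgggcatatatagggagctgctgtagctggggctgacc

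The Ivl window held 1 AP-1 motif that began 116 bases before the start and 1 TATA box that began 29 bases before it, and the motifs do not overlap. The Upk1a window held neither string of letters. Of 32851 start regions of the same length, 4.46% held the AP-1 motif and 12.4% the TATA box on either strand. These matches describe the letters of the windows and are not binding sites.

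The EKP section held 261111 barcodes with 31597828 gene counts and a median of 84, and the RKP section 255744 barcodes with 44294494 gene counts and a median of 154. Barcodes with at least 80 gene counts were used, which left 133173 barcodes (51.0%) of EKP and 201447 (78.8%) of RKP. The libraries shared 19 barcode names. In barcodes with 5 or more Epcam counts, the 20 negative control probes averaged 0.900 counts per 1000000 gene counts (CPM) with a highest probe of 3.57 CPM in EKP, and averaged 0.676 CPM with a highest of 3.08 CPM in RKP. The 6 simple epithelial genes of the list (Epcam, Krt8, Krt19, Cdh1, Cldn4 and Cldn7) were all at least 2-fold higher in barcodes with 5 or more Epcam counts than in those with 0 to 1, in both sections. Epcam itself set that gate. In the Epcam-rich EKP barcodes Krt8 was detected in 99.5%, Krt19 in 99.3% and Cdh1 in 95.4%.

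Both members were higher in the EKP epithelium, Ivl by far more than Upk1a. In barcodes with 5 or more Epcam counts Ivl stood at 2881 CPM (2850 to 2912) over 41731 EKP barcodes, against 460 CPM (451 to 470) over 72085 RKP barcodes, a ratio of 6.26 (6.11 to 6.41). Upk1a stood at 905 CPM (887 to 922) in EKP and 480 CPM (470 to 490) in RKP, a ratio of 1.88 (1.83 to 1.94). Ivl thus passed the 2-fold mark and Upk1a did not. Without barcodes that also held 5 or more counts of stromal or immune markers, a filter that left 36.0% of the EKP and 43.1% of the RKP barcodes of this gate, the Ivl ratio was 4.27. Of 469 genes above the negative controls, 26.2% reached 2-fold higher levels in EKP and 17.1% reached 2-fold lower levels.

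The other 9 measured genes of the squamous list did not share the difference seen for Ivl. None was at least 2-fold higher in the EKP epithelium, 5 of 9 were at least 2-fold lower, and their median ratio was 0.439, against 1.17 over all genes tested. The other 4 lay between these marks, with a highest ratio of 1.95. Krt16, Lor and Sbsn were present in the Epcam-rich EKP barcodes, at 456, 511 and 500 CPM. There 4 of 8 tested squamous genes were at least 2-fold higher than at 0 to 1 Epcam counts, as were 15.0% of all genes. Krt5, a basal-layer keratin, stood at 15.0 CPM in EKP against 389 CPM in RKP, a ratio of 0.0384. Of these RKP Krt5 counts, 64.1% lay in 495 barcodes with 5 or more counts of the core squamous genes described below. Without such barcodes Krt5 stood at 140 CPM in RKP and 15.0 CPM in EKP. Krt5 is itself a core gene, so its share in such barcodes and its fall without them follow in part from how they were defined. The count of 5 of 9 was not recomputed without them. The other uroplakins measured, Upk1b, Upk3a and Upk3b, were at 3.74, 4.35 and 11.4 CPM in the Epcam-rich EKP barcodes. Upk1a was therefore the only one of the 4 measured uroplakins far above the highest negative control probe there.

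Detection showed the same order. At least 1 Ivl count was present in 34.4% (33.9% to 34.9%) of Epcam-rich EKP barcodes, with a median depth of 264 gene counts, and in 7.74% (7.55% to 7.94%) of Epcam-rich RKP barcodes, with a median depth of 244. For Upk1a the shares in this gate were 20.7% in EKP and 11.3% in RKP. As a background, barcodes with macrophage markers, which should hold neither gene, had Ivl in 2.12% and Upk1a in 1.61% in EKP (median depth 153), and Ivl in 0.572% and Upk1a in 1.46% in RKP (median depth 171). Over the 6 stromal and immune sets of EKP the shares ran up to 3.79% for Ivl, in T cell sets (11 of 290 barcodes). For Upk1a they ran up to 3.91%, in fibroblast sets with a median depth of 175. Over the 6 RKP sets they ran up to 0.572% for Ivl, in macrophage sets, and up to 2.03% for Upk1a, in T cell sets. Thinned to 80 gene counts per barcode, which left out no barcode of the gates, detection of Ivl was 16.0% in EKP and 3.15% in RKP, and that of Upk1a was 6.96% in EKP and 3.63% in RKP.

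**Figure D1:**
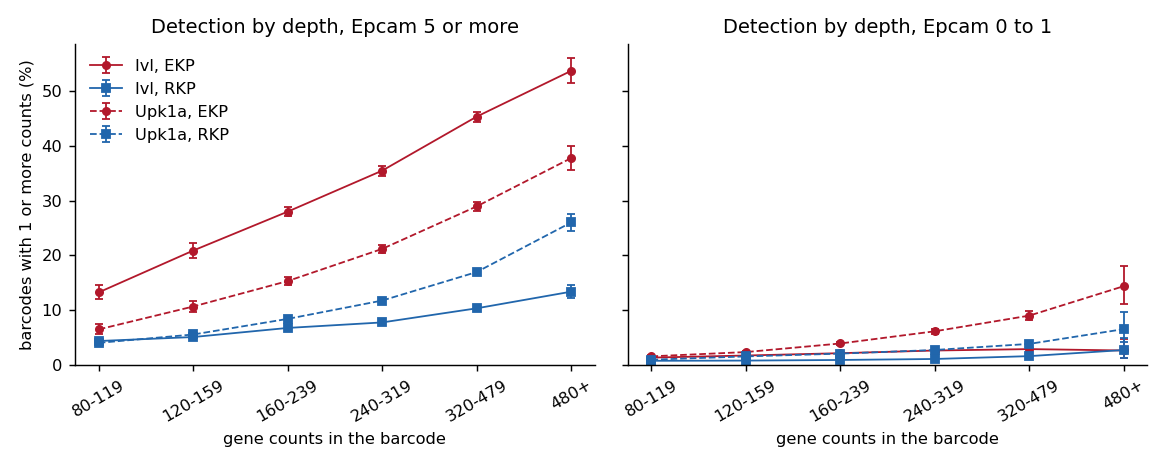
Share of barcodes with 1 or more counts of Ivl (solid lines) or Upk1a (dashed lines), in percent, by gene counts in the barcode, for barcodes with 5 or more Epcam counts (left) and 0 to 1 (right). EKP is drawn as circles and RKP as squares, with exact 95% binomial intervals. In the Epcam-rich barcodes Ivl runs from 13.3% to 53.7% in EKP and from 4.37% to 13.4% in RKP.

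The share of Epcam-rich barcodes with Ivl was higher in EKP than in RKP in every depth bin drawn, so the gap was present at matched depth. Upk1a was also higher in EKP in every bin of that gate. In RKP, Upk1a was detected more often than Ivl in the deeper bins, whereas in EKP Ivl was detected more often than Upk1a in all of them.

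The sections were also split into 10 successive parts of the barcode list as a view of spread within a section, and these parts are not replicates. Across the parts of the Epcam-rich set, Ivl had a lowest, median and highest level of 1589, 2820 and 4424 CPM in EKP, against 197, 409 and 1687 CPM in RKP. Ivl overlapped between the sections only in that the highest RKP part exceeded the lowest EKP part. Upk1a had a lowest, median and highest level of 584, 929 and 1077 CPM in EKP, against 439, 488 and 564 CPM in RKP, and these ranges did not overlap. Without barcodes that held 5 or more counts of the core squamous genes described below, the highest RKP part for Ivl was 926 CPM and the Ivl ranges no longer overlapped. The share of all genes whose part ranges did not overlap was not computed, so nothing is read from the lack of overlap of either gene.

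The Ivl counts were also more concentrated in few barcodes than those of Upk1a. In Epcam-rich EKP barcodes the variance of the Ivl count was 3.55 times its mean, and the 240 barcodes (0.575%) with 10 or more counts held 9.10% of all Ivl counts of the gate. The largest count was 34. For Upk1a the variance was 1.15 times the mean and the largest count was 6. In RKP the ratios were 2.99 for Ivl and 1.09 for Upk1a, with largest counts of 26 and 4.

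Both genes were followed along the Epcam count. In EKP, Ivl stood at 81.0, 325, 624, 1146, 2248, 2974, 3246 and 2685 CPM in barcodes with 0, 1, 2, 3 to 4, 5 to 9, 10 to 19, 20 to 39 and 40 or more Epcam counts. It climbed steeply up to 10 Epcam counts and lay between 2685 and 3246 CPM above that. In RKP the same bins gave 53.4, 126, 280, 434, 487, 463, 418 and 584 CPM for Ivl, a much shallower course that had levelled off from 3 Epcam counts on.

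**Figure D2:**
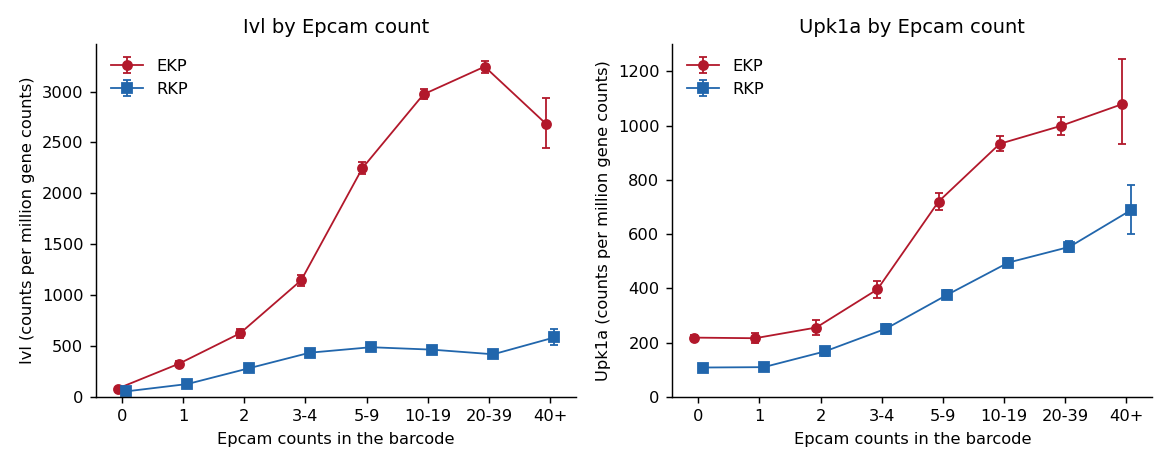
Level of Ivl (left) and Upk1a (right) in CPM, by the number of Epcam counts in the barcode. EKP is drawn as circles and RKP as squares, with exact 95% Poisson intervals. Ivl reaches 3246 CPM in EKP at 20 to 39 Epcam counts, against 418 CPM in RKP, while Upk1a climbs in both sections.

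Upk1a did not level off. In EKP it stood at 218, 216, 255, 396, 720, 933, 999 and 1079 CPM over the same Epcam bins, and in RKP at 108, 109, 167, 251, 376, 495, 553 and 687 CPM. The gate of 5 Epcam counts fell on a slope and not on a step. Just inside it, at 5 counts, EKP barcodes had 1775 CPM of Ivl and 539 CPM of Upk1a, and just outside, at 4 counts, 1250 and 439 CPM. In RKP the values at 5 and at 4 counts were 504 and 450 CPM for Ivl and 309 and 281 CPM for Upk1a.

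Between barcodes with 5 or more and with 0 to 1 Epcam counts, Ivl differed by a ratio of 23.0 (21.9 to 24.1) in EKP and 6.36 (6.00 to 6.75) in RKP. The ratio of Upk1a was 4.16 (3.99 to 4.33) in EKP and 4.43 (4.22 to 4.66) in RKP. The EKP ratios were smaller once barcodes with stromal or immune markers were left out. Without barcodes of 5 or more such counts, which left 4.01% of the EKP barcodes with 0 to 1 Epcam counts, the ratio was 10.4 for Ivl and 1.21 for Upk1a. Both members passed the 2-fold mark in both sections. So did 15.0% of 473 genes tested in EKP and 17.0% of 446 in RKP, and since this contrast is part of how the genes were chosen nothing is read from it.

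Krt5 was low in EKP barcodes with at least 80 gene counts. Of these, 378 held any Krt5, 370 of them a single count and 8 of them 2 counts, and none held more. EKP barcodes under 80 gene counts, which were not used, held 1381 Krt5 counts in 1342 barcodes, with a largest count of 3. Their Krt5 level was 433 CPM, where the highest negative control probe was at 68.1 CPM. In RKP 7503 barcodes with at least 80 gene counts held Krt5, and 993 of them held 10 or more counts. Of the Ivl counts in barcodes with at least 80 gene counts, barcodes without Krt5 carried 99.4% in EKP and 77.7% in RKP. Such barcodes made up 99.7% of the EKP and 96.3% of the RKP barcodes. The share of Ivl without Krt5 was thus slightly below the share of barcodes in EKP and well below it in RKP.

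In barcodes with any Krt5, Ivl stood at 2505 CPM in EKP and at 1573 CPM in RKP, and was detected in 21.4% (17.4% to 25.9%) and 14.2% (13.5% to 15.1%) of them. Against Krt5-free barcodes of the same section Ivl was higher by a ratio of 1.90 (1.66 to 2.16) in EKP and 6.83 (6.54 to 7.14) in RKP. Among all genes tested, 25.5% of the EKP and 17.1% of the RKP ones passed 2-fold upward in Krt5-positive barcodes. Of the other squamous genes 5 of 8 tested did so in EKP and 8 of 8 in RKP. The EKP count rests on very few molecules, since its Krt5-positive barcodes held 3 Dsc3 and 4 Calm4 counts in all. The EKP ratio of Ivl turned to 0.811 without barcodes of 5 or more stromal or immune marker counts, which left 83 of 378 Krt5-positive barcodes. Of the 19815 Krt5-free EKP barcodes left, 14975 had 5 or more Epcam counts, against 41561 of 132795 before. The RKP ratio was 1.41 without barcodes of 5 or more core squamous counts, a set described below. The core sum includes Krt5, so leaving these barcodes out also removes those rich in Krt5.

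The association of Ivl with Krt5 differed by Epcam gate. With 5 or more Epcam counts, the level of Ivl was higher in Krt5-positive than in Krt5-free barcodes in both sections. The ratio was 1.44 (1.26 to 1.65) in EKP and 2.94 (2.75 to 3.13) in RKP. By detection, Ivl was present in 66 of 170 Krt5-positive EKP barcodes (38.8%, 31.5% to 46.6%), against 34.4% of Krt5-free ones. Stratified over 14 depth bins, the EKP odds ratio of detection was 1.12 (0.81 to 1.54). That odds ratio turned to 0.750 without barcodes of 5 or more stromal or immune marker counts, which left 59 of the 170 Krt5-positive barcodes. It turned to 0.588 when barcodes were thinned to 80 gene counts before gating. In RKP the same gate gave 13.2% (12.0% to 14.4%) of Krt5-positive against 7.51% of Krt5-free barcodes and a stratified odds ratio of 1.68. That RKP odds ratio was 1.09 with 10 or more Epcam counts and 1.01 without barcodes of 5 or more core squamous counts, a sum that includes Krt5. With 0 to 1 Epcam counts, Ivl was detected in 6.33% (10 of 158) of Krt5-positive against 1.95% of Krt5-free EKP barcodes, with a stratified odds ratio of 3.34. In RKP the corresponding shares were 9.21% and 0.663%, with a stratified odds ratio of 15.1. In both sections the odds ratio was larger in the Epcam-poor than in the Epcam-rich gate, and the EKP one rests on 10 joint barcodes.

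The odds ratio of Upk1a with Krt5 lay close to 1 among Epcam-rich barcodes. Upk1a was detected in 22.4% of Krt5-positive against 20.7% of Krt5-free EKP barcodes, with a stratified odds ratio of 1.01, and in 12.0% against 11.3% in RKP, with a stratified odds ratio of 0.893. With 0 to 1 Epcam counts the sections went opposite ways. Upk1a was detected there in 8.86% (14 of 158) of Krt5-positive against 3.65% of Krt5-free EKP barcodes, a stratified odds ratio of 2.37, and in 1.13% against 1.85% in RKP, a stratified odds ratio of 0.613. The Krt5-positive barcodes of that gate held at most 2 Krt5 counts in EKP and up to 44 in RKP, so unlike barcodes are compared. The difference between the sections was not tested.

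Ivl in RKP did not follow Krt5 in a straight line. It stood at 230, 628, 3148, 5725, 3623 and 1836 CPM in RKP barcodes with 0, 1, 2, 3 to 5, 6 to 9 and 10 or more Krt5 counts. The level was thus highest at intermediate Krt5 and lower again in the Krt5-richest barcodes. Upk1a ran the other way, at 290, 373, 182, 102, 74.9 and 60.9 CPM over the same bins after a small step up at 1 count. In EKP, barcodes with 0 and 1 Krt5 counts had 1318 and 2550 CPM of Ivl, and the 8 barcodes with 2 counts held no Ivl count.

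To see where Ivl sat relative to squamous cells rather than to Krt5 alone, the counts of 4 genes were summed per barcode. These core squamous genes were Krt5, the desmosomal cadherin Dsc3, the calmodulin-like Calm4 and the keratin Krt79, and they were chosen after the data had been seen. In RKP 3240 barcodes (1.61%) held 5 or more core counts. These barcodes were poor in the simple keratin Krt8, at 798 CPM against 25784 CPM in the rest. They carried 21.0% of all RKP Ivl counts at 4471 CPM (4297 to 4650), against 228 CPM in the rest. In EKP only 6 barcodes reached 5 core counts, none of them with Krt5. They held 4 of the section's Ivl counts, which is 0.0107%.

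**Figure D3:**
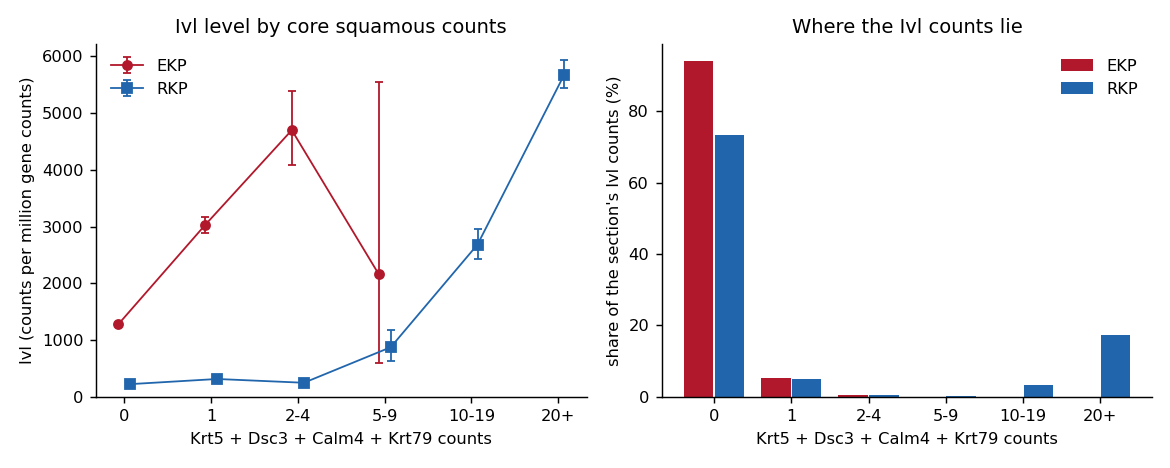
Left, Ivl in CPM by the summed counts of Krt5, Dsc3, Calm4 and Krt79 in the barcode, with exact 95% Poisson intervals, and right, the share of each section's Ivl counts in each bin, in percent. EKP is shown in red and RKP in blue, and no EKP barcode reached 10. In RKP Ivl reaches 5681 CPM at 20 or more core counts, and 94.2% of the EKP and 73.5% of the RKP Ivl counts lie at 0 core counts. Barcodes with 0 core counts are 98.0% of the EKP and 94.1% of the RKP barcodes, so both Ivl shares lie below the share of barcodes.

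The RKP section therefore held Ivl in 2 settings. In one, a small set of Krt8-poor barcodes rich in core squamous genes, the Ivl level was higher than in the EKP epithelium. In the other, the Krt8-rich barcodes with fewer than 5 core counts and 5 or more Epcam counts, Ivl stood at 419 CPM (410 to 428), against 2881 CPM in the same set of EKP. Upk1a was low in the first setting, at 73.4 CPM, against 292 CPM in the rest of the RKP section. Most core-rich RKP barcodes also lay outside the Epcam gate, which held 495 of the 3240. Within EKP, Ivl was higher with 1 and with 2 to 4 core counts (3026 and 4700 CPM) than with none (1276 CPM). Those barcodes were rich in Krt8, at 38472 and 41717 CPM, and in Epcam, at 37336 and 40541.5 CPM, against 22717 CPM of Epcam with none. The contrast therefore also sets barcodes rich in Epcam against a mix with Epcam-poor ones. Among Epcam-rich EKP barcodes, Ivl stood at 2820 CPM with no core count. The core counts of the Epcam-rich EKP barcodes were mostly Krt79, at 1281 counts, against 172 of Krt5, 128 of Dsc3 and 150 of Calm4.

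The genes that accompanied Ivl were compared between Ivl-positive and Ivl-negative barcodes with 5 or more Epcam counts, matched on depth. There were 14219 barcodes on each side in EKP and 5579 on each side in RKP. In EKP none of the 8 squamous genes above the negative controls was at least 2-fold higher with Ivl, and their ratios ran between 0.562 and 1.66 with a median of 1.07, against a median of 0.876 over all genes. The share of all 467 genes that passed 2-fold upward was 0.428%. In RKP 9 of 9 squamous genes were at least 2-fold higher with Ivl, with a median ratio of 4.24, against a share of 16.7% of 432 genes and a median of 0.996 over all of them. Among Epcam-rich barcodes without Krt5, 0 of 7 squamous genes passed in EKP, where 0.218% of 458 genes did, and 6 of 8 passed in RKP, where 12.5% of 424 genes did.

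Named members show the gap. Krt5 had 65 counts in Ivl-positive and 63 in Ivl-negative EKP barcodes, a ratio of 1.04 (0.721 to 1.49), against 1667 and 511 counts and a ratio of 3.27 (2.96 to 3.62) in RKP. Krt16, a keratin of stressed and suprabasal keratinocytes, had a ratio of 1.23 in EKP and 6.20 in RKP. Dsc3 had a ratio of 0.562 (0.341 to 0.911) in EKP, so it was lower with Ivl, and of 6.42 (5.33 to 7.80) in RKP. Cnfn, which encodes the cornified envelope protein cornifelin, had 161 counts in Ivl-positive and 0 in Ivl-negative RKP barcodes, at least 53.8-fold higher against a floor of 3 counts for the set. In EKP it had 5 counts in Ivl-positive and 2 in Ivl-negative barcodes, a ratio of 2.51 (0.411 to 26.4) that was too close to the controls to count.

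**Figure D4:**
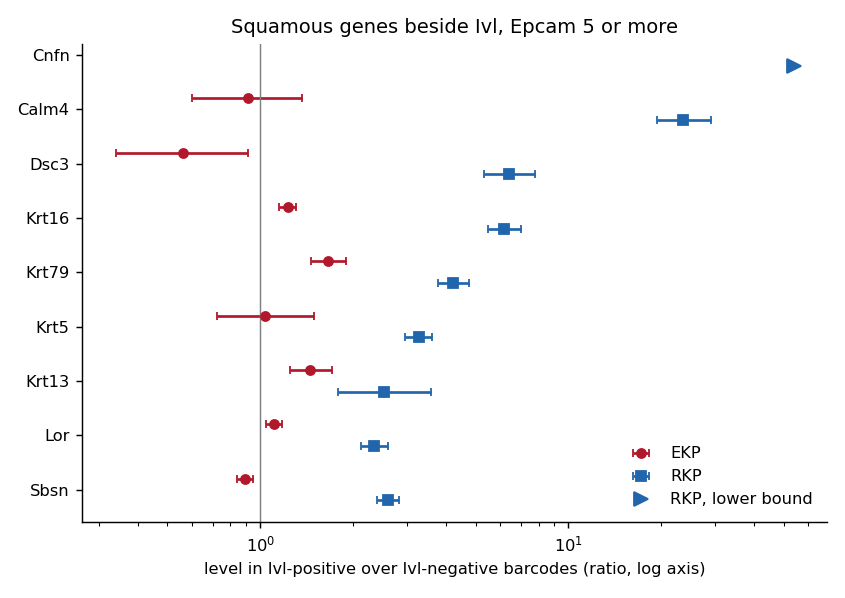
Ratio of the level in Ivl-positive over Ivl-negative barcodes with 5 or more Epcam counts, matched on depth, for the squamous genes, on a log axis. Circles are EKP and squares RKP with exact 95% intervals, the triangle is the lower bound for Cnfn in RKP, and Cnfn in EKP was below the controls. The EKP ratios lie between 0.562 and 1.66 and the RKP ratios at 2.35 or above.

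The squamous genes were compared by Ivl count as well. In EKP barcodes with 0, 1, 2, 3 to 4, 5 to 9 and 10 or more Ivl counts, Krt5 stood at 15.0, 8.52, 24.6, 13.4, 23.2 and 31.6 CPM, of which the last rests on 3 counts. Krt8 stayed between 46825 and 50891 CPM over these bins. Even the 240 EKP barcodes richest in Ivl were therefore Krt8-rich, and they held 1 Calm4, 1 Dsc3 and no Cnfn count. They did hold 45 Krt16 counts, with Krt16 detected in 12.5% of them, against 8.13% of the EKP barcodes with no Ivl. Krt16 stood at 425, 469, 496, 510, 680 and 473 CPM over the EKP bins. In RKP the 42 barcodes with 10 or more Ivl counts had Krt5 at 9199 CPM, Calm4 at 66208 CPM, Cnfn at 6946 CPM and Krt16 at 38799 CPM, with Krt8 at 13329 CPM. RKP barcodes with 1 Ivl count instead had Krt8 at 43970 CPM and Krt5 at 867 CPM. Krt79 followed another course. Krt79 stood at 88.5, 115, 157, 178, 198 and 284 CPM over the EKP bins, so it was higher with more Ivl, and Lor was at 789 CPM in the EKP barcodes with 10 or more Ivl counts, against 500.3 CPM in those with none. In RKP, Krt79 stood at 192, 790, 1440, 1113, 537 and 62.6 CPM over the same bins, highest at 2 Ivl counts, and the last value rests on 1 count.

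Genes near Ivl on chromosome 3 were looked at in the same sets. The panel holds 3 others within 1000 kb in the RefSeq annotation of GRCm38.p6, namely Crct1, Lce1m and Lor, the last of which encodes loricrin, a main protein of the cornified envelope. In EKP 2 of them were above the controls, and none of these was at least 2-fold higher with Ivl, with ratios of 1.11 for Lor and 0.593 for Crct1, and 0.428% of all genes passed that mark. In RKP 3 of 3 passed it, where 16.7% of all genes did, with ratios of 2.35 for Lor and 18.2 for Crct1. Lce1m had 72 counts in Ivl-positive and 1 in Ivl-negative RKP barcodes, a ratio of 72.2 (12.5 to 2889). The other genes at the head of the RKP ranking were Fam25c, with 100 against 1 counts and a ratio of 100.2 (17.6 to 3997), and Gm94 at 56.2. Slc10a1 had 5 counts in Ivl-positive and 0 in Ivl-negative barcodes, at least 1.67-fold higher against the floor of 3 counts. It is counted among the genes past 2-fold although that bound does not reach it.

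The genes that led with Ivl in EKP were headed by 2 gel-forming mucins. Muc5ac, the surface mucin of the stomach, had a ratio of 2.14 (1.82 to 2.53), at 106 CPM in Ivl-positive against 49.5 CPM in Ivl-negative barcodes. The related mucin Muc5b had a ratio of 2.03. These were the 2 genes that passed 2-fold (0.428% of 467), and neither was among the 72 (16.7% of 432) that did so in RKP. With shares this small, nothing is read from the lack of overlap. Oit1 followed at 1.84, Prom2 at 1.74, Krt79 at 1.66, Slc14a1 at 1.63 and the antioxidant enzyme Gpx2 at 1.60. The next 3 genes, 5330417C22Rik, Trim29 and Cdx1, lay between 1.56 and 1.58. The Cdx1 ratio rested on 28 against 18 counts, and its interval (0.834 to 3.00) includes 1. Gpx2 stood at 8746 CPM in Ivl-positive and 5450 CPM in Ivl-negative EKP barcodes. The intestinal mucin Muc2 was lower with Ivl, at a ratio of 0.597 (0.547 to 0.652). The 5 lowest ratios, of Sostdc1, Scgb3a1, Mlc1, Ly6h and Slc5a1, ran between 0.309 and 0.381 and rested on few counts. Of the gastric and gut list, 1 of 10 genes was at least 2-fold higher with Ivl in EKP, where 0.428% of all genes were. In RKP 4 of 9 tested were, where 16.7% of all genes were, namely Agr2, Cdhr5, Tff1 and Tff2.

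Epcam-rich barcodes with no core count at all were set apart next, so that the squamous set of RKP could not enter. This comparison was added after the data had been seen. In EKP 0.218% of 458 genes were at least 2-fold higher with Ivl, the single gene being Muc5ac, and in RKP 8.74% of 412 genes were. Of the squamous genes still above the controls, 0 of 4 in EKP and 1 of 4 in RKP were at least 2-fold higher. The gate itself sets the 4 core genes to 0 here. The highest RKP ratio was that of Gria2, on 7 against 1 counts. The genes named from this set were picked after their values had been seen. The antimicrobial lectin Reg3g had a ratio of 5.47 (4.41 to 6.83) in RKP, against 0.580 (0.357 to 0.926) in EKP, where it had 30 and 52 counts. Ambp, which encodes a precursor of plasma glycoproteins, had a ratio of 3.18 in RKP, against 1.12 in EKP, where it was near the controls. The membrane mucin Muc3a had a ratio of 2.98 in RKP, against 0.588 in EKP.

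Some genes moved with Ivl in both sections of this core-free set. Oit1 had a ratio of 1.95 (1.77 to 2.15) in EKP and 3.54 (3.11 to 4.05) in RKP. Gpx2 had a ratio of 1.60 (1.58 to 1.63) in EKP and 1.69 (1.60 to 1.79) in RKP. Car2, which encodes a carbonic anhydrase, had a ratio of 1.54 in EKP and 1.62 in RKP. Trim29 had a ratio of 1.56 in EKP and 1.61 in RKP. Prom2 was higher with Ivl in EKP at 1.78 (1.67 to 1.89) and not in RKP, at 0.974 (0.888 to 1.07).

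Joint detection of Ivl and Upk1a was slightly above what independent detection would give. In Epcam-rich EKP barcodes 3612 (8.66%) held both, 10745 held Ivl alone and 5028 held Upk1a alone, and Ivl was present in 41.8% (40.8% to 42.9%) of Upk1a-positive against 32.5% of Upk1a-negative barcodes. Upk1a-positive barcodes were deeper, with medians of 309 against 253 gene counts, and the odds ratio was 1.21 over depth strata, against a crude 1.49. In RKP 789 barcodes (1.09%) held both, 4790 Ivl alone and 7352 Upk1a alone, with Ivl in 9.69% of Upk1a-positive against 7.49% of Upk1a-negative barcodes and a stratified odds ratio of 1.14. The level of Upk1a was higher with Ivl by a ratio of 1.20 (1.15 to 1.25) in EKP and 1.21 (1.10 to 1.34) in RKP in the depth-matched sets. Within the Epcam-rich gate of both sections there was thus a small excess of joint detection beyond depth.

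Few genes distinguished Upk1a-positive from Upk1a-negative barcodes. In EKP 0.661% of 454 genes were at least 2-fold higher with Upk1a, among them Gm94 with 15 against 2 counts and Pln at a ratio of 2.13, and 0 of 8 squamous and 0 of 10 gastric and gut genes were. In RKP 2.22% of 450 genes were at least 2-fold higher and 6.0% at least 2-fold lower. Of the squamous genes in RKP none was higher and 5 of 9 were at least 2-fold lower with Upk1a, including Cnfn at a ratio of 0.0624 and Calm4 at 0.115. In barcodes with no core count, 0 of 4 squamous genes passed 2-fold in either direction in EKP, and 0 of 4 in RKP. There 1.1% of 455 EKP genes and 4.52% of 442 RKP genes were at least 2-fold higher.

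Outside the Epcam gate the members parted. Barcodes with 0 to 1 Epcam counts were sorted by 5 or more summed counts of a marker list into macrophage, neutrophil, T cell, fibroblast, endothelial and pericyte sets, and in RKP also into small mast cell and muscle sets. Over the 6 sets present in both sections, Ivl ran between 102 CPM (20 counts) and 287 CPM (12 counts) in EKP. In RKP it ran between 22.3 CPM (4 counts) and 49.2 CPM (17 counts). All were above the highest negative control probe and far below the Epcam-rich level of the same section. Upk1a ran between 99.7 CPM in macrophage and 219 CPM in fibroblast sets in EKP, against 60.8 CPM in neutrophil and 150 CPM in T cell sets in RKP. The 187 RKP barcodes with mast cell markers had Ivl at 161 CPM (5 counts) and Upk1a at 321 CPM (10 counts), and the 268 with muscle markers had Ivl at 20.9 CPM (1 count) and Upk1a at 83.6 CPM (4 counts).

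The largest exception was a set of EKP barcodes with 0 to 1 Epcam counts, no marker set and 5 or more Krt8 counts. In these 2366 barcodes Upk1a stood at 813 CPM (728 to 906), close to its 905 CPM in the Epcam-rich barcodes, and was detected in 12.9% (11.6% to 14.3%) at a median depth of 159. Ivl stood at only 297 CPM (247 to 355) there, against 2881 CPM in the Epcam-rich barcodes. In the same RKP set of 7469 barcodes Upk1a was at 192 CPM (171 to 215) and Ivl at 101 CPM. Among RKP barcodes of no set with under 5 Krt8 counts, Ivl was at 288 CPM, in a set with Krt5 at 3642 CPM.

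**Figure D5:**
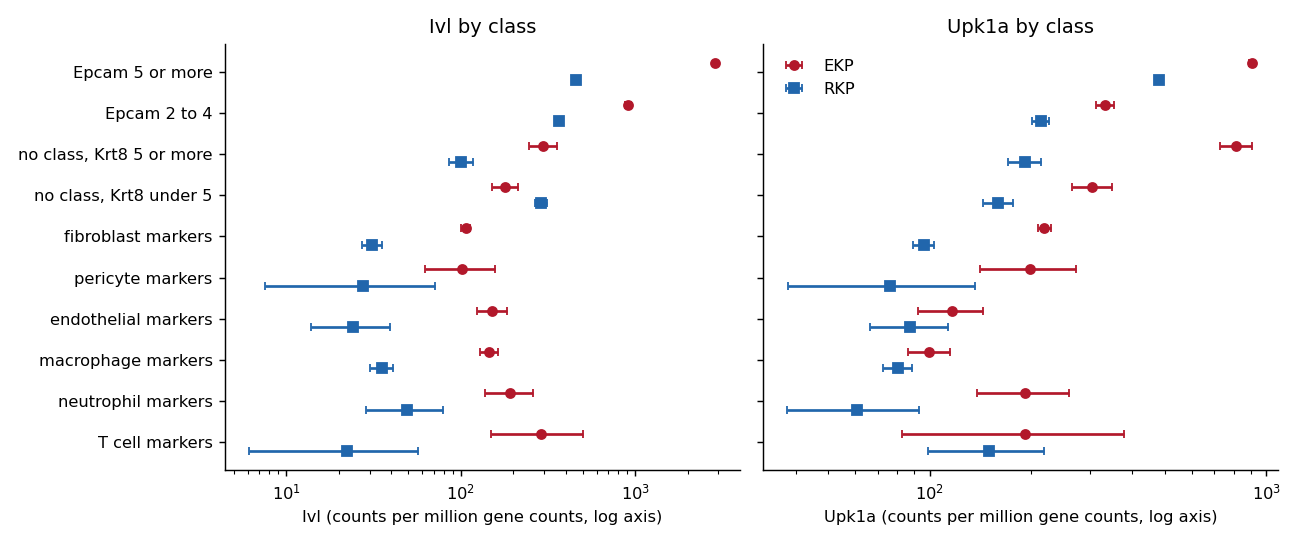
Level of Ivl (left) and Upk1a (right) in CPM on a log axis, in barcode sets by Epcam count and, below 2 Epcam counts, by marker set. EKP circles lie above RKP squares in each row, with exact 95% Poisson intervals. Upk1a is at 813 CPM in EKP barcodes of no marker set with 5 or more Krt8 counts, while Ivl is at 297 CPM there.

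The Krt8 count showed this without the marker sets. Among all EKP barcodes with 0 to 1 Epcam counts, Upk1a stood at 72.2, 246, 588, 659 and 622 CPM with 0, 1 to 4, 5 to 9, 10 to 19 and 20 or more Krt8 counts. Ivl stood at 59.1, 201, 238, 87.0 and 84.4 CPM over the same bins. Upk1a climbed with Krt8 and held its level, whereas Ivl was lower again in the bins richest in Krt8. In RKP, Upk1a stood at 65.0, 125, 168, 146 and 262 CPM and Ivl at 90.4, 51.7, 77.2, 79.7 and 131 CPM over these bins, the last with 18 and 9 counts. Col1a1, a fibroblast marker, was detected in 94.0% of the EKP and 74.5% of the RKP barcodes with 10 to 19 Krt8 counts, and its part in these levels was not tested.

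Over 22 barcode sets of both sections, compared on log2(CPM + 10), the genes whose pattern was most like that of Ivl were Gpx2 (Pearson r = 0.88), Acan (r = 0.83) and Upk1a (r = 0.81). The genes most like Upk1a were Acan (r = 0.86), Nupr1 (r = 0.82) and Ivl (r = 0.81). These values describe sets that share 2 libraries and their depths. The 5 next most like Ivl were Gpa33, Serpinb5, Oit1, Krt19 and Snap25, with r between 0.76 and 0.80, and none of the 9 squamous genes was among them.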

How the data were processed

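The deposited files hold raw counts per gene and barcode of 2 Xenium sections, 1 for EKP and 1 for RKP; per the submitters' processing notes Seurat 4.4.0 was used, and no segmentation settings were found in the labels. The authors' counts were used as deposited. Barcodes with under 80 gene counts were left out. Levels are summed counts per 1000000 gene counts (CPM) with exact Poisson intervals, shares have exact Clopper-Pearson intervals, and ratios have exact conditional binomial intervals. All intervals are at 95% and cover counting error only, and with 1 section a group no test was made. Odds ratios were combined over 14 depth strata (Mantel-Haenszel). Thinning drew 80 counts per barcode with a fixed seed. Genes counted as tested were above the highest negative control probe on at least 1 side, and 2-fold was the mark. No doublet caller was run. Named genes were the 10 highest and 5 lowest ratios with Ivl in EKP, the 5 highest with Ivl in RKP, leading genes with Upk1a, the 8 most like Ivl and members of the lists, and others are said to be picked later. The members and lists were chosen with earlier results of these data known. Promoter windows came from RefSeq (GRCm38.p6). The computations used Python 3.11.15, numpy 2.4.6, scipy 1.17.1 and pandas 2.3.3, and were tested on simulated data.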

Additional observations from a re-analysis of the deposited data

Results flagged for a closer look

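Over all barcodes with at least 80 gene counts, Upk1a went opposite ways with Krt5 in the sections. Its level in Krt5-positive over Krt5-free barcodes was 1.37 (1.05 to 1.75) in EKP and 0.961 (0.874 to 1.05) in RKP. The difference was not tested. The RKP interval includes 1, and among barcodes with 5 or more Epcam counts the ratios were 0.974 in EKP and 0.925 in RKP. Among barcodes with 0 to 1 Epcam counts the sections did go opposite ways. In EKP, Upk1a stood at 457 CPM (250 to 766, on 14 counts) in Krt5-positive barcodes against 218 CPM in all barcodes of that gate. In RKP it stood at 69.3 CPM against 108 CPM. The Krt5-positive barcodes of that gate were unlike, with Krt5 at 5315 CPM in EKP and 22440 CPM in RKP. The stratified odds ratios there were 2.37 in EKP and 0.613 in RKP.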

How the results depend on the processing

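Of 74 values recomputed under other settings, 35 moved by less than their counting error. Ratios of Ivl in EKP over RKP were 6.84 at 10 or more Epcam counts, 4.27 without stromal or immune marker barcodes, 6.60 per barcode, 5.92 with barcodes weighted alike, 5.90 after thinning and 6.88 without core squamous barcodes. Those of Upk1a were 1.99 per barcode and 2.00 after thinning. The Epcam ratio of Ivl in EKP was 19.9 and 25.4 at minimums of 40 and 160 gene counts, 24.5 at 10 or more Epcam counts, 10.4 without marker barcodes, 34.7 per barcode, 20.5 weighted alike and 8.90 after thinning, where the Epcam gate itself lost counts. That of Upk1a was 3.83 at 160, 4.42 at 10 or more Epcam counts, 1.21 without marker barcodes, 6.29 per barcode and 4.35 weighted alike. The Krt5 ratio of Ivl in EKP was 2.17 per barcode, and reversed to 0.0 at 2 or more Krt5 counts (8 barcodes) and to 0.811 without marker barcodes (83 Krt5-positive barcodes left). In RKP it was 6.14 at 160, 14.7 at 2 or more Krt5 counts, 6.14 without marker barcodes, 7.42 per barcode, 7.98 weighted alike, 9.55 after thinning and 1.41 without core barcodes. The odds ratio of Ivl with Upk1a in EKP was 1.14 at 10 or more Epcam counts. That of Ivl with Krt5 in EKP reversed to 0.0 at 2 or more Krt5 counts, to 0.750 without marker barcodes (59 Krt5-positive barcodes left) and to 0.588 after thinning. In RKP it was 1.09 at 10 or more Epcam counts, 5.18 at 2 or more Krt5 counts, 2.13 without marker barcodes, 1.50 after thinning and 1.01 without core barcodes. Other causes were not tested. The core setting was chosen after seeing the data, and its sum includes Krt5, so it also selects on Krt5. No paired analysis was possible because each group has 1 section. The EKP values with Krt5 rest on 386 Krt5 counts, which sets their precision.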
